A study of Mus musculus with 10 samples.

Results

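The genes of the mitochondrial respiratory chain were examined in whole-peritoneum RNA-seq libraries of male C57BL/6 mice. The rule that picks them reads gene symbols and no measured value. The nuclear-encoded set holds symbols that start with Ndufa, Ndufb, Ndufc, Ndufs or Ndufv and a digit, the symbols Sdha, Sdhb, Sdhc and Sdhd, and symbols that start with Uqcr, with Cox4 through Cox8, or with Atp5. The second set holds the symbols that start with mt-, which are encoded by the mitochondrial genome. Of 21877 gene symbols, 100 met the rule, 87 of them nuclear-encoded and 13 mitochondrially encoded. After a filter on low counts 95 were tested, 84 nuclear-encoded and 11 mitochondrially encoded. Cox8c, Cox7b2, Ndufb11b, mt-Atp8 and mt-Nd4l had too few counts to test. By symbol the nuclear set also takes in Cox5b-ps, named as a pseudogene, and Cox7a2l, a factor in the assembly of respiratory supercomplexes.

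Mice were Mr1+/+ or Mr1-/-. Mr1 encodes a class I-like molecule that presents small metabolites to mucosal-associated invariant T cells. Each genotype received intraperitoneal injections of PBS or of an equal volume of 4.25% peritoneal dialysis (PD) fluid for 6 weeks. There were 3 Mr1+/+ PBS, 3 Mr1+/+ PD fluid, 2 Mr1-/- PBS and 2 Mr1-/- PD fluid libraries. The labels do not say whether the libraries of a group came from separate animals.

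The respiratory chain passes electrons from NADH and succinate to oxygen and uses the energy to pump protons across the inner mitochondrial membrane. Complex I (NADH dehydrogenase) and complex II (succinate dehydrogenase) feed coenzyme Q, complex III passes electrons to cytochrome c, complex IV (cytochrome c oxidase) reduces oxygen, and ATP synthase makes ATP from the proton gradient. The mitochondrial genome encodes a few core subunits of complexes I, III and IV and of ATP synthase. All other subunits, and the whole of complex II, are encoded in the nucleus and imported. In fat and muscle these genes are expressed at high levels, and several complex IV subunits come as a widely expressed form and a form restricted to muscle or brown fat.

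Library totals ran from 14145635 to 16335799 counts. The first and the second Mr1+/+ PBS libraries differed by a chi-square of 2.23 per gene and both Mr1-/- PD fluid libraries by 1.74, where other pairs within a group differed by 18.6 to 118. Each of these near-identical pairs was summed and counted as 1 sample, which left 2 Mr1+/+ PBS, 3 Mr1+/+ PD fluid, 2 Mr1-/- PBS samples and 1 Mr1-/- PD fluid sample. The fits assume that the lone Mr1-/- PD fluid sample varies like the other groups, so the p-values speak to the variation among these few samples alone, technical or biological. Mr1 had 324 to 524 counts in Mr1+/+ libraries and 29 to 39 in Mr1-/- libraries, which matches the labels. All 8 mesothelial markers passed the filter, at a summed level of 63.0 to 1062 CPM, counts scaled to a common library size. The 1062 CPM belong to Mr1+/+ PBS replicate 3 and come mostly from the keratin genes Krt8, Krt18 and Krt19, which other epithelia share. Its counts of Msln, Upk3b, Wt1, Lrrn4 and Upk1b were below those of the other Mr1+/+ PBS libraries. That sample stood apart, with 23270 CPM of pancreatic acinar and 1616 CPM of intestinal epithelial markers, the highest of all samples.

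The nuclear and the mitochondrial genes did not follow the same order across the groups. Mitochondrially encoded genes took 0.824% of all counts in the summed Mr1+/+ PBS replicates 1 and 2 and 1.62% in replicate 3. In the Mr1+/+ PD fluid samples they took 1.76%, 1.69% and 1.73%. In Mr1-/- mice they took 2.63% and 3.16% under PBS and 1.80% under PD fluid. The Mr1-/- PBS samples were therefore the highest of all 8, and the Mr1+/+ PBS samples the lowest, with the PD fluid samples of both genotypes close to each other in between.

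The 87 nuclear genes together took a smaller share, and PD fluid in Mr1+/+ was highest. Their share was 0.540% and 0.603% in Mr1+/+ PBS and 0.618%, 0.673% and 0.825% in Mr1+/+ PD fluid. It was 0.501% and 0.567% in Mr1-/- PBS and 0.496% in Mr1-/- PD fluid. The ratio of mitochondrial to nuclear counts was 1.53 and 2.68 in Mr1+/+ PBS and 2.84, 2.52 and 2.09 in Mr1+/+ PD fluid, so these groups overlapped. It was 5.25 and 5.57 in Mr1-/- PBS and 3.62 in Mr1-/- PD fluid, above every Mr1+/+ sample. These shares are sums over chosen genes and carry no test.

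**Figure D1:**
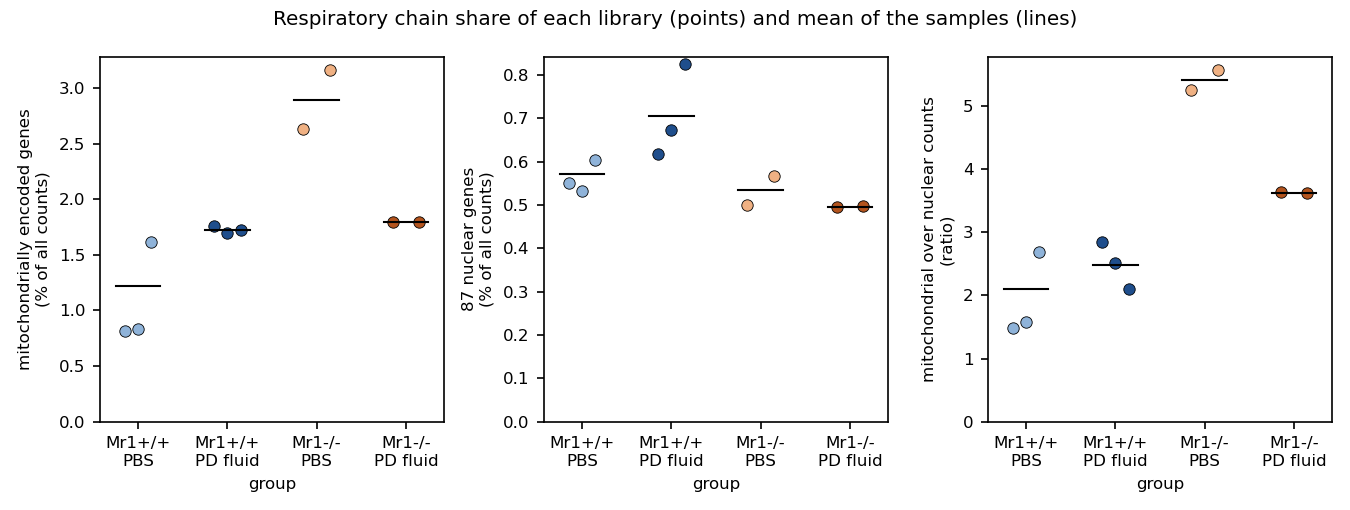
Share of all counts from mitochondrially encoded genes (left, %), share from the 87 nuclear genes (middle, %) and the ratio of both (right) in each of the 10 libraries by group; lines are means over samples, with near-identical libraries summed. The mitochondrial share is highest in Mr1-/- PBS (2.63% and 3.16%), while the nuclear share is highest in Mr1+/+ PD fluid (up to 0.825%).

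PD fluid against PBS in Mr1+/+ mice asks how the peritoneum with Mr1 responds to the fluid. Here 3 of the 84 nuclear genes rose and none fell at an adjusted p under 0.05 (edgeR quasi-likelihood test, Benjamini-Hochberg over 15385 genes). All 3 belong to complex IV: Ndufa4, its paralog Ndufa4l2, and Cox8b. Among all genes tested 14.9% were called in either direction and 8.49% as higher, so a count of 3 of 84 is below the background. The direction of the other genes was mostly the same: 75 of 84 had a positive log2 fold change, with a median of 0.39, where the median of all genes was -0.06. The lowest of the other 9 was Cox7a1 at -0.41. Before adjustment 20 genes, 23.8% of the 84, had a p under 0.05, all of them higher, where 16.6% of all genes were higher at that limit. In 29 nuclear genes every PD fluid sample exceeded both PBS samples, as it did in 25% of all genes.

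Ndufa4 encodes a small subunit of complex IV that was long assigned to complex I. It lies on chromosome 6 (mm10, chr6:11900292-11907497, minus strand). It stood at 43.8 and 41.1 CPM in the Mr1+/+ PBS samples and at 64.8, 86.1 and 121 CPM under PD fluid. Both groups were apart, and Mr1-/- samples lay between them at 52.8 and 61.9 CPM under PBS and 49.3 CPM under PD fluid. The log2 fold change for PD fluid in Mr1+/+ was 1.09 (SE 0.25, edgeR adjusted p = 0.028).

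Ndufa4l2, a paralog known for its induction in low oxygen (chr10:127514967-127517154, plus strand), was far less abundant. It had 4.15 and 4.56 CPM in Mr1+/+ PBS and 11.2, 9.79 and 16.8 CPM in Mr1+/+ PD fluid. In Mr1-/- samples it had 5.17 and 2.98 CPM under PBS and 3.79 CPM under PD fluid, all below every Mr1+/+ PD fluid sample. Its log2 fold change for PD fluid in Mr1+/+ was 1.53 (SE 0.35, edgeR adjusted p = 0.028).

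Cox8b is the muscle and brown fat form of the smallest complex IV subunit (chr7:140898945-140900446, minus strand). Its counts were low, 6 to 76 per library. Its level was 0.369 and 0.562 CPM in Mr1+/+ PBS and 1.18, 2.95 and 4.92 CPM in Mr1+/+ PD fluid, with no overlap. In Mr1-/- samples it was 0.884 and 2.10 CPM under PBS and 0.915 CPM under PD fluid. The log2 fold change for PD fluid in Mr1+/+ was 2.71 (SE 0.76, edgeR adjusted p = 0.049), just past the threshold.

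**Figure D2:**
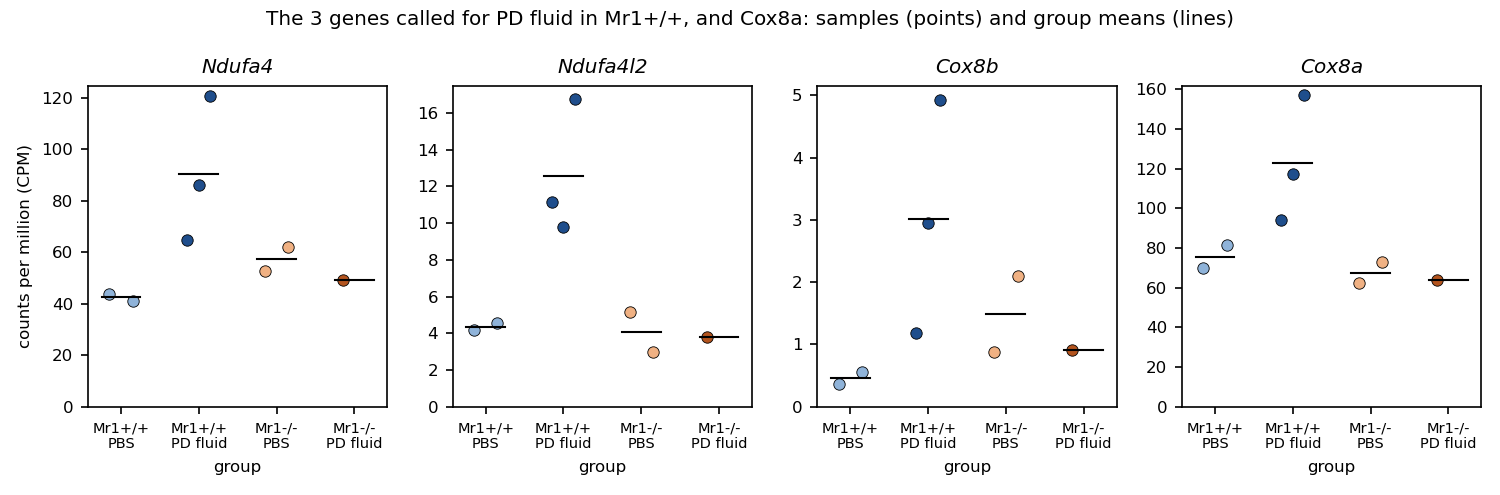
CPM in each of the 8 samples (points) and group means (lines) for Ndufa4, Ndufa4l2 and Cox8b, and for Cox8a, the widely expressed partner of Cox8b; axes start at 0. For the first 3 genes every Mr1+/+ PD fluid sample lies above both Mr1+/+ PBS samples, and replicate 3 is the highest.

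These calls depended on single samples. Mr1+/+ PD fluid replicate 3 had the highest mean level of all 8 samples. That mean over the 84 genes was 5.34 log2 CPM, against 4.72 and 4.92 in the other PD fluid samples and 4.52 and 4.76 in Mr1+/+ PBS. Without that library none of the 84 genes was called and their median log2 fold change was 0.15, with no gene called in the whole table. Without Mr1+/+ PD fluid replicate 2 none of the 84 was called either, in a fit that called 2.21% of all genes. Without replicate 1, the lowest of the 3, 13 were called, in a fit that called 14% of all genes. Without Mr1+/+ PBS replicate 3, which left 1 sample in that group, Ndufa4l2 was still called but Ndufa4 and Cox8b were not. Without either of the first 2 Mr1+/+ PBS libraries Cox8b was not called. DESeq2 called 13 of the 84 on the same samples, all higher, and 25% of all genes in either direction. With the 10 libraries treated as separate samples 29 of 84 rose, where 19.2% of all genes were called as higher.

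Among the other complex IV genes the widely expressed subunits had positive fold changes short of the threshold. Cox6a1, the nuclear complex IV gene with the highest level per length (175 CPM per kb of exon, mean of all samples), had 88.8 and 109.7 CPM in Mr1+/+ PBS and 125, 163 and 240.3 CPM in Mr1+/+ PD fluid. Its log2 fold change was 0.83 (SE 0.27, edgeR adjusted p = 0.076). Cox8a, the common form of the smallest subunit, had 69.9 and 81.3 CPM in Mr1+/+ PBS and 94.2, 117 and 157 CPM in Mr1+/+ PD fluid, without overlap (log2 fold change 0.70, SE 0.22, edgeR adjusted p = 0.064). Cox7a2 (0.69), Cox6b1 (0.54), Cox4i1 (0.45) and Cox7b (0.24) had positive log2 fold changes as well. The 19 tested complex IV genes had a median log2 fold change of 0.45, 17 of them above 0.

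The tissue-restricted forms stayed rare in every sample, whatever the group. The log2 level of the restricted form minus that of the widely expressed form, not corrected for length, ran from -5.65 to -4.97 for Cox4i2 against Cox4i1 and from -8.75 to -6.59 for Cox6a2 against Cox6a1. It ran from -5.88 to -4.78 for Cox6b2 against Cox6b1 and from -6.65 to -4.44 for Cox7a1 against Cox7a2. In none of these 4 pairs were the Mr1+/+ PD fluid samples apart from the Mr1+/+ PBS samples. For Cox8b against Cox8a they were apart, at -6.20, -5.27 and -4.97 under PD fluid and -7.21 and -6.94 under PBS, while Mr1-/- samples had -5.98 and -5.05 under PBS and -5.98 under PD fluid. For Ndufa4l2 against Ndufa4 the difference was -2.53, -3.12 and -2.84 under PD fluid and -3.37 and -3.14 under PBS, apart by a narrow margin. Cox6a2, Cox6b2 and Cox7a1, with log2 fold changes of 0.05, 0.41 and -0.41 in Mr1+/+, and Cox4i2 with 0.47, did not pass the test. The estimates of Cox6a2 and Cox7a1 changed sign with single libraries left out.

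In complex I, whose nuclear subunits carry electrons from NADH to coenzyme Q, none of 36 tested genes was called, 32 had positive fold changes and the median log2 fold change was 0.44. Complex I held 12 of the 20 genes at an unadjusted p under 0.05, complex IV held 6, and complex II and ATP synthase held 1 each.

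Complex II, which is also an enzyme of the tricarboxylic acid cycle, had a median log2 fold change of 0.38 over its 4 genes. Sdha, its flavoprotein, had 353 and 392 CPM in Mr1+/+ PBS and 445, 549 and 595 CPM under PD fluid, again without overlap (log2 fold change 0.51, SE 0.17, edgeR adjusted p = 0.075). Complex III had a median of 0.31 over 8 genes, and its Rieske iron-sulfur protein Uqcrfs1 overlapped between the groups, with 90.3 and 119.1 CPM under PBS and 106, 116 and 151 CPM under PD fluid (log2 fold change 0.25). ATP synthase had the smallest median, 0.25 over 17 genes. Atp5a1, the alpha subunit of its catalytic head and the nuclear gene with the highest level per length (250.1 CPM per kb), was at 755 and 859 CPM in Mr1+/+ PBS and at 753, 918 and 983 CPM in Mr1+/+ PD fluid (log2 fold change 0.13).

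**Figure D3:**
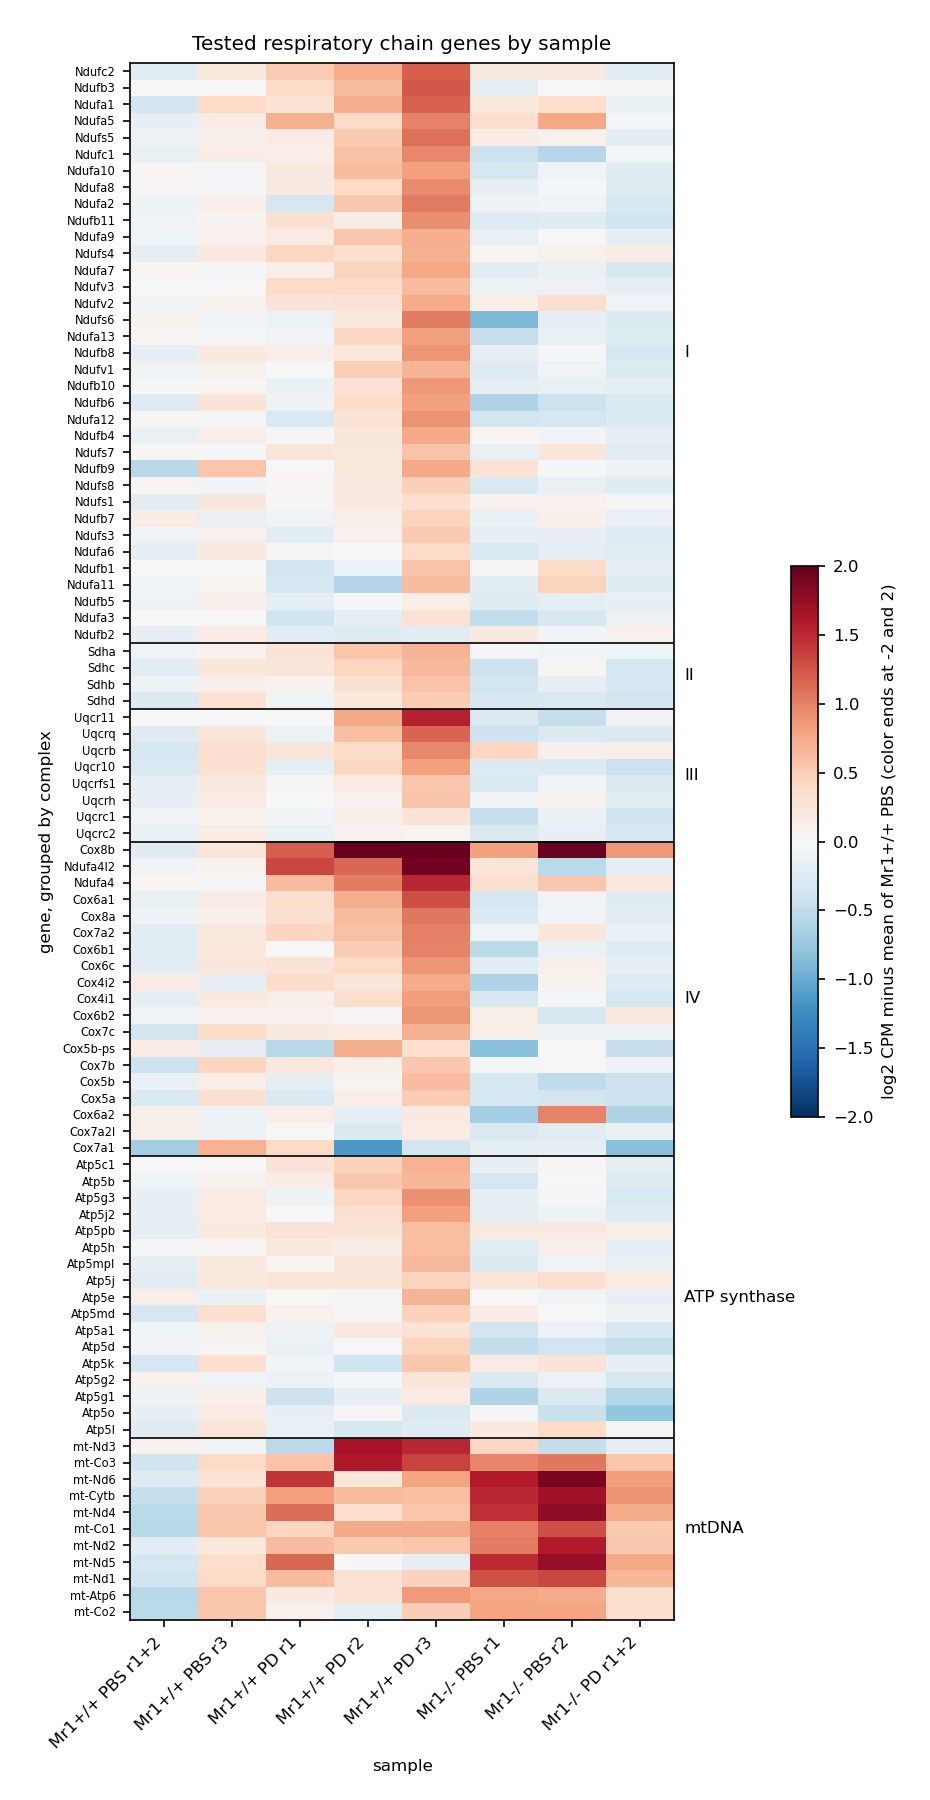
Each row is a tested gene (all but 1 are drawn) and each column 1 of the 8 samples; color is log2 CPM minus the mean of both Mr1+/+ PBS samples, with genes grouped by complex and sorted by their fold change for PD fluid in Mr1+/+. Most nuclear genes are highest in Mr1+/+ PD fluid replicate 3, and most mitochondrially encoded genes (bottom) are highest in the Mr1-/- PBS samples.

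For PD fluid in Mr1+/+ the levels of fat cell genes moved with those of the nuclear genes. The 12 adipocyte markers summed to 6228 to 7560 CPM in Mr1+/+ PBS and to 17930 to 26930 CPM in Mr1+/+ PD fluid, and 11 of 12 rose. In Mr1-/- samples they summed to 8110 to 11560 CPM under PBS and 10070 CPM under PD fluid. The mean of the 12 markers was 8.21 and 8.61 log2 CPM in Mr1+/+ PBS and 9.83 to 10.2 log2 CPM in Mr1+/+ PD fluid. Replicate 3 was highest, as it was for the nuclear genes and also for fibroblast and macrophage markers. The order differed elsewhere. Mr1+/+ PD fluid replicate 1 was above PBS replicate 3 for adipocyte markers (9.83 and 8.61) but not for nuclear genes (4.72 and 4.76). Mr1-/- PBS replicates 1 and 2 had 9.05 and 8.51 for adipocyte markers but 4.47 and 4.62 for nuclear genes. With the mean of the 12 adipocyte markers as a covariate, none of the 84 nuclear genes was called and their median log2 fold change was -0.32. Of the genes called without the covariate, Ndufa4l2 had -0.45 in that fit, while Ndufa4 and Cox8b kept a positive sign. In that fit 0.416% of all genes were called. Between genotypes under PBS the medians had opposite signs, 0.35 for the adipocyte markers and -0.13 for the nuclear genes. In a bulk library more cells of a type and more RNA per cell cannot be told apart, and the part of fat cell content in these results was not tested.

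Other cell types moved too. All 6 fibroblast markers, 4 of 6 macrophage markers and 4 of 6 endothelial markers rose with PD fluid in Mr1+/+. So did 3 of 4 tested erythroid markers and 1 of 6 liver markers, where 8.49% of all genes were called as higher. All 6 B cell and 3 of 6 T cell markers fell, where 6.37% of all genes were called as lower. No mesothelial, smooth muscle, pancreatic acinar or intestinal epithelial marker was called. Skeletal muscle markers were low, 36.4 to 64.0 summed CPM, and the fast myosin gene Myh4 was at 0 in every library. Of the 10 muscle markers tested, 1 rose and none fell with PD fluid in Mr1+/+. Their median log2 fold change was -1.01, with 3 positive and 7 negative. With the mean muscle marker level as a covariate none of the 84 nuclear genes was called and the median of these 84 was 0.14. In that fit 3.52% of all genes were called. Of 7 brown fat markers 4 were tested and none was called. For PD fluid in Mr1+/+ their median log2 fold change was 1.83, with 3 positive and Ppargc1a negative at -0.54. In 3 of 4 every PD fluid sample exceeded both PBS samples, as it did in 25% of all genes. Cidea had 39 to 64 counts in the Mr1+/+ PBS libraries and 99, 240 and 374 in the Mr1+/+ PD fluid libraries. Otop1 had 3 to 7 and then 9, 55 and 49 counts, and Dio2 had 6 and then 16 to 22. The uncoupling gene Ucp1 had no count in 9 of the 10 libraries and 3 in the first Mr1+/+ PBS library. The part of brown fat content in the values of Cox8b and Ucp3 was not tested.

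In Mr1-/- mice PD fluid was compared with PBS in the same way, and no respiratory chain gene was called, nor was any of the 15385 genes (0%, edgeR). The median log2 fold change of the 84 nuclear genes was -0.11 and none was at an unadjusted p under 0.05, where 0.299% of all genes were lower at that limit. DESeq2 called 11 genes of the whole table and none of these. In 43 of the 84 nuclear genes the PD fluid sample was below both PBS samples, against 27.9% of all genes. In 10 of the 84 it was above both, against 4418 of all 15385 genes. The genes with the smallest p in each complex were Ndufa5 (log2 fold change -0.60), Sdhc (-0.17), Uqcrh (-0.24), Cox6a2 (-1.27) and Atp5l (-0.27), none of which passed the test.

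Between genotypes under PD fluid the nuclear genes leaned 1 way, lower in Mr1-/-, although none was called (edgeR adjusted p under 0.05 in 0.013% of all genes). Of the 84 genes, 82 were lower in Mr1-/-, with a median log2 fold change of -0.65 where the median of all genes was 0. Before adjustment 26 genes, 31% of the 84, had a p under 0.05, all of them lower, where 8.85% of all genes were lower at that limit. In 71 genes the Mr1-/- PD fluid sample was below all 3 Mr1+/+ PD fluid samples, against 33.9% of all genes. Without Mr1+/+ PD fluid replicate 3 the median was -0.42. DESeq2 called 10 of the 84, all lower, and 6.73% of all genes in either direction. With the 10 libraries as separate samples 33 of the 84 were called, all lower, where 11.1% of all genes were called as lower. The comparison shares its Mr1+/+ PD fluid samples with the one for PD fluid in Mr1+/+, so the 2 are not independent.

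Complex IV had the lowest median in this comparison (-0.76 over 19 genes), followed by complex I (-0.65 over 36) and complex II (-0.63 over 4). Ndufa4l2 had the smallest p of all nuclear genes, with a log2 fold change of -1.73 (SE 0.47, edgeR adjusted p = 0.15). In complex I the smallest p was that of Ndufv3, a small subunit of the NADH-oxidizing module, at 50.2, 50.3 and 59.6 CPM in Mr1+/+ and 34.1 CPM in Mr1-/- (log2 fold change -0.65, edgeR adjusted p = 0.16). Sdhc, a membrane anchor of complex II, was at 100.3, 114 and 133 CPM in Mr1+/+ and 66.7 CPM in Mr1-/- (log2 fold change -0.80, edgeR adjusted p = 0.19). For complex III and ATP synthase, Uqcrc1 (-0.49) and Atp5c1 (-0.66) had the smallest p. Adipocyte markers were lower in Mr1-/- here too (median log2 fold change -1.14 over 12), and with their mean as a covariate the median of the nuclear genes was -0.14.

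Under PBS the nuclear genes of both genotypes were close, with a median log2 fold change of -0.13 for Mr1-/- against Mr1+/+ none of 84 at an unadjusted p under 0.05, and none called by DESeq2. The smallest p in each complex was that of Ndufa5 (log2 fold change 0.57), Sdhb (-0.27), Uqcrc1 (-0.29), Cox8b (1.70) and Atp5d (-0.43), and none passed the test. The interaction, the test of whether PD fluid acted differently in both genotypes, called no gene in the whole table (0%, edgeR), and DESeq2 called none of the 84. Its estimates were mostly negative for the nuclear genes (80 of 84, median -0.47), and 8 were at an unadjusted p under 0.05, all negative, 9.52% of the 84 against 7.16% of all genes. The median was -0.25 without Mr1+/+ PD fluid replicate 3 and 0.12 with the adipocyte marker covariate. The smallest p of the complexes were those of Ndufc2 (-1.25), Sdha (-0.56), Uqcrh (-0.47), Ndufa4 (-1.31) and Atp5c1 (-0.58).

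**Figure D4:**
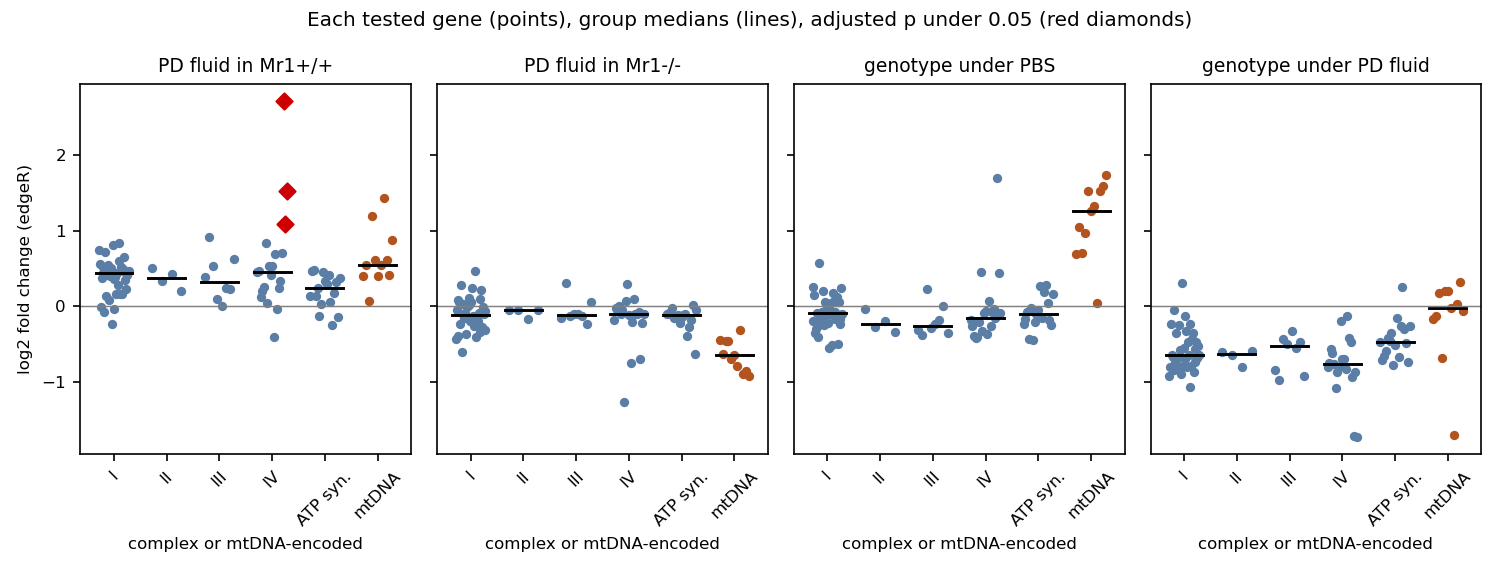
Log2 fold change of each tested gene (points) with the median of its complex (black lines) in the 4 comparisons; genotype comparisons are Mr1-/- against Mr1+/+. The 3 red diamonds, the genes with an adjusted p under 0.05, all lie in complex IV for PD fluid in Mr1+/+, and the mtDNA-encoded genes are highest for genotype under PBS (median 1.25).

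The mitochondrially encoded genes are read from the mitochondrial genome as long transcripts of either strand that are then cut. Most of their mature mRNAs, though not all, carry short poly-A tails, so a poly-A library can hold those mRNAs. Of these genes 8 of 11 were higher in Mr1-/- than in Mr1+/+ under PBS at an unadjusted p under 0.05, 72.7% of the 11 against 5.64% of all genes, and none was called after adjustment (edgeR adjusted p under 0.05 in 0.013% of all genes). The median log2 fold change was 1.25 and all 11 were positive. In 10 of 11 both Mr1-/- PBS samples exceeded both Mr1+/+ PBS samples, as they did in 20.5% of all genes. With the adipocyte marker mean as a covariate the median was 1.13, and without Mr1+/+ PBS replicate 3 it was 1.71. DESeq2 called 6 of the 11: mt-Nd1, mt-Nd2, mt-Co1, mt-Nd4, mt-Nd6 and mt-Cytb, where it called 1.37% of all genes. These genes are cut from shared transcripts and are not independent of each other.

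Markers of other tissues differed between these samples too. The liver gene Alb ranged from 3 to 35 counts with Mr1 intact and from 947 to 1698 counts without it, and it was called as higher in Mr1-/- under PBS (edgeR). The 6 liver markers summed to 81.6 to 132 CPM in Mr1-/- PBS and 1.60 to 248 CPM in Mr1+/+ PBS. The 5 smooth muscle markers summed to 4861 CPM in Mr1-/- PBS replicate 2 and to 1040 to 1902 CPM in all other samples. Their part in the mitochondrial values was not tested.

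mt-Nd2, a complex I subunit, had the smallest p. It was at 581 and 786 CPM in Mr1+/+ PBS and at 1378 and 2035 CPM in Mr1-/- PBS, with 1041, 971 and 989 CPM in Mr1+/+ PD fluid and 986 CPM in Mr1-/- PD fluid. The Mr1-/- PBS samples were the only ones above 1041 CPM. Its log2 fold change between genotypes under PBS was 1.32 (SE 0.24, unadjusted p = 0.00047, edgeR adjusted p = 0.48).

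mt-Cytb, the cytochrome b core of complex III, followed the same order. It was at 952 and 1794 CPM in Mr1+/+ PBS, at 2302, 2011 and 1991 CPM in Mr1+/+ PD fluid, at 3715 and 4168 CPM in Mr1-/- PBS and at 2423 CPM in Mr1-/- PD fluid. Both Mr1-/- PBS samples were above all others (log2 fold change under PBS 1.52, SE 0.29, edgeR adjusted p = 0.51). mt-Co1, the catalytic core of complex IV, made up 60.1% to 71.5% of the mitochondrial counts of a library. It was at 5218 and 11259 CPM in Mr1+/+ PBS, at 10324, 12994 and 12902 CPM in Mr1+/+ PD fluid, at 15355 and 18825 CPM in Mr1-/- PBS and at 11058 CPM in Mr1-/- PD fluid (log2 fold change under PBS 1.05, SE 0.34, edgeR adjusted p = 0.57).

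The other complex I genes mt-Nd1 (log2 fold change under PBS 1.25), mt-Nd4 (1.53), mt-Nd5 (1.59) and mt-Nd6 (1.73), and mt-Co3 of complex IV (0.97), had estimates of the same sign. mt-Nd6, which is encoded on the opposite strand to the others, was at 30.3 and 43.5 CPM in Mr1+/+ PBS and at 109.1 and 136 CPM in Mr1-/- PBS. In Mr1+/+ PD fluid it was at 97.5, 42.5 and 63.0 CPM, and in Mr1-/- PD fluid at 64.8 CPM. Strand was not marked in these libraries, so reads of mt-Nd6 and of the opposite strand at that place cannot be told apart.

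For PD fluid the estimates of the mitochondrial genes had opposite signs in the 2 genotypes, but no gene was called in either (edgeR). In Mr1+/+ all 11 estimates were positive (median 0.55). At an unadjusted p under 0.05 were 4 of them, 36.4%, where 16.6% of all genes were higher at that limit. In 3 of 11 every PD fluid sample exceeded both PBS samples, as it did in 25% of all genes. mt-Co3 came closest to the threshold (log2 fold change 1.20, SE 0.35, edgeR adjusted p = 0.058). It was at 9.90 and 17.3 CPM under PBS and 19.5, 40.0 and 33.8 CPM under PD fluid. Estimates for the others with high counts were 0.88 for mt-Nd6, 0.61 for mt-Cytb, 0.61 for mt-Nd4, 0.55 for mt-Co1, 0.55 for mt-Nd2, 0.41 for mt-Nd5 and 0.40 for mt-Nd1. Without Mr1+/+ PBS replicate 3, the sample with acinar and intestinal transcripts, 5 of 11 were called, in a fit that called 18.2% of all genes, and the median was 1.14, and without Mr1+/+ PD fluid replicate 1 mt-Co3 was called and mt-Nd5 was at -0.13. With the adipocyte covariate the median was -0.19. DESeq2 called 4 of the 11, mt-Nd2, mt-Co3, mt-Nd6 and mt-Cytb, against 25% of all genes.

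In Mr1-/- all 11 estimates for PD fluid were negative (median -0.65). In 10 the lone PD fluid sample was below both PBS samples, as it was in 27.9% of all genes. Only mt-Nd2 was at an unadjusted p under 0.05 (log2 fold change -0.79). The interaction was negative for all 11, with a median of -1.32 (-0.51 with the adipocyte covariate). It was -1.34 for mt-Nd2 (SE 0.37, edgeR adjusted p = 0.27), -1.32 for mt-Cytb, -1.80 for mt-Nd6 and -1.18 for mt-Co1. DESeq2 called the interaction of mt-Nd2, mt-Nd6 and mt-Cytb, and of 3.17% of all genes. Between genotypes under PD fluid the mitochondrial genes had a median of -0.02, 5 positive and 6 negative, and none was at an unadjusted p under 0.05.

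The mitochondrial genes differed widely in level along their genome. mt-Co2, mt-Atp8, mt-Atp6, mt-Co3, mt-Nd3 and mt-Nd4l, which lie side by side between chrM:7013-10173, had 0 to 596 counts per library, where the other 7 genes had 487 to 278257. A stretch of chromosome 1 carries a near-identical copy of this part of the mitochondrial genome, annotated in GENCODE as pseudogenes. The copies cover 98.99% to 99.87% of mt-Co2, mt-Atp6, mt-Co3, mt-Nd3 and mt-Nd4l at an identity of 99.71% to 100%. They also cover 63.6% of mt-Nd4 and 31.3% of mt-Co1. Less similar copies from other annotated pseudogenes match all 1545 bases of mt-Co1 (97.61% identity, Gm13340), 510 bases of mt-Nd2 (96.67%, Gm13339) and 954 bases of mt-Nd5 (95.18%, Gm4076). Among annotated transcripts, the only sequences searched, no copy at 95% identity was found for mt-Nd1, mt-Nd6, mt-Cytb or mt-Atp8. Of these mt-Atp8 had 0 to 1 counts per library. Reads that fall in both places match both, and how such reads were counted is not given in the sources used here. Fold changes of mt-Co3, the best counted of these genes, are therefore uncertain, and those of mt-Co2, mt-Atp6 and mt-Nd3 are given only as part of the ranges.

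The start of the coding sequence of mt-Nd3 shows how close the copy is. Position 3, counted from 1 at the first base of mt-Nd3, is the only mismatch to Gm28438 (T3C, first mt-Nd3 and then the copy) over 345 aligned bases, and it is in capitals below. The other bases shown are the same in both. The mt-Nd3 stretch is at chrM:9459-9518 of GRCm38 (plus strand), and the copy belongs to Gm28438 at chr1:24612775-24613119.
mt-Nd3: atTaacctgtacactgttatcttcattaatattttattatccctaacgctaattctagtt
Gm28438: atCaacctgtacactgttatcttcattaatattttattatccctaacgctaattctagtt

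**Figure D5:**
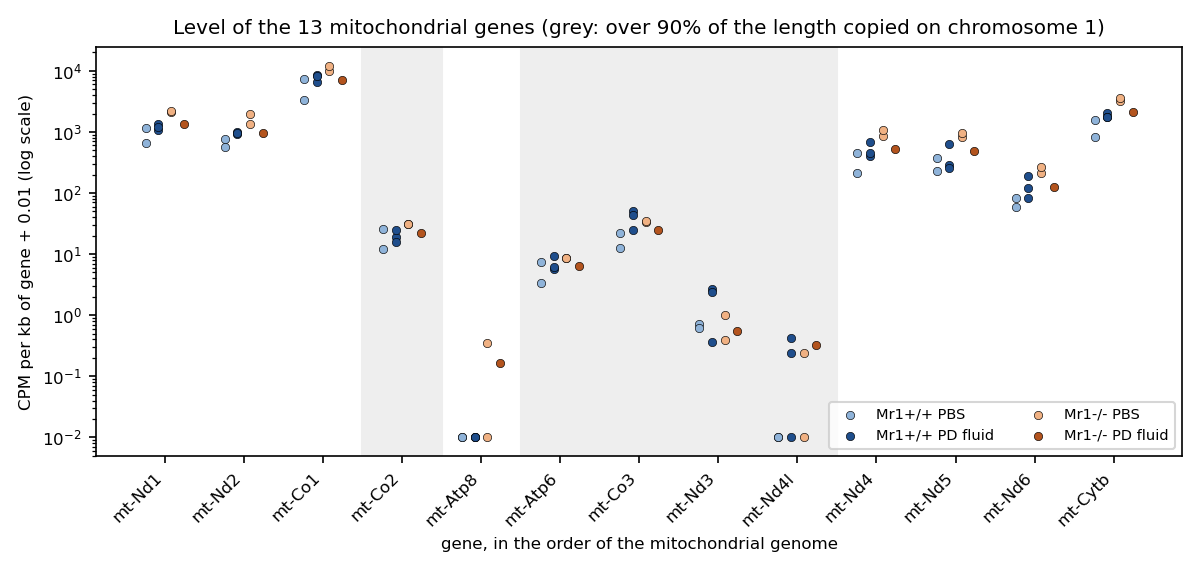
Level of the 13 mitochondrially encoded genes, in the order of the mitochondrial genome, as CPM per kb of gene plus 0.01 on a log axis; each point is 1 of the 8 samples. Grey marks genes with over 90% of their length copied on chromosome 1; mt-Co1 is the highest gene, and the genes from mt-Co2 to mt-Nd4l hold at most 596 counts in any library.

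Nuclear genes were less affected by copies. In 23 of the 82 that matched a transcript, another gene held a stretch of at least 100 bases at 95% identity or more, mostly processed pseudogenes. For PD fluid in Mr1+/+ the median log2 fold change was 0.36 in those 23 and 0.41 in the 57 tested genes without a copy, and between genotypes under PD fluid it was -0.61 and -0.67. Split by exonic length, the 27 shortest genes had a median of 0.53, the 26 in the middle 0.33 and the 27 longest 0.41 for PD fluid in Mr1+/+. Split by mean level in the same way, the medians were 0.41, 0.36 and 0.43 from low to high.

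What nuclear genes share in their promoters was examined in the 250 bases before the RefSeq start site (GRCm38.p6, both strands searched), which were at hand for 69 of the 87. NRF1 and the ETS-family factor GABP are long known as activators of respiratory chain genes. Letters of the NRF1 motif were found in 13 of 69 members (18.8%), where 4.23% of all genes hold them. The ETS letters CCGGAAG were found in 12 (17.4%, all genes 7.83%), the estrogen-related receptor letters CAAGGTCA in 3 (4.35%, all genes 1.51%), the E-box CAGCTG in 6 (8.7%, all genes 14.7%) and TATAAA in 7 (10.1%, all genes 14.3%). Such matches are letters, not shown binding sites.

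The promoters of 3 members show this range. Sdha and Cox6a1 are the genes of their complexes with the highest level per length and hold NRF1 letters (in capitals). Uqcrfs1, the highest per length in complex III and not shown, holds none, and for Atp5a1 of ATP synthase no window was at hand. Cox8b, which rose, holds no NRF1 letters but an E-box (in capitals, 19 to 14 bases before the start). Each stretch is 120 bases on the minus strand, read toward the gene and ending before the annotated gene: chr13:74350281-74350400 for Sdha, chr5:115348982-115349101 for Cox6a1 and chr7:140900447-140900566 for Cox8b.
Sdha: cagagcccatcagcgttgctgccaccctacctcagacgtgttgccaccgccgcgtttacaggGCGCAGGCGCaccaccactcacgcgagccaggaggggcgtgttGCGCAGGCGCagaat
Cox6a1: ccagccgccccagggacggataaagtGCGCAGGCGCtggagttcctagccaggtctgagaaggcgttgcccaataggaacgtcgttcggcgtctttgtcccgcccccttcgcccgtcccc
Cox8b: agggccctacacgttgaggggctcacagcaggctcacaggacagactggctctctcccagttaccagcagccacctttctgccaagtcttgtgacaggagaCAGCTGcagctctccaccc

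Genes with and without these letters were compared by their medians, with no test. For PD fluid in Mr1+/+ the median log2 fold change was 0.45 in the 13 genes with NRF1 letters and 0.38 in the 55 tested genes without them. Between genotypes under PD fluid it was -0.60 and -0.61. For the other letters the medians for PD fluid in Mr1+/+ were 0.27 with and 0.40 without ETS, 0.45 and 0.38 for CAAGGTCA, 0.50 and 0.35 for the E-box, and 0.17 and 0.40 for TATAAA. Between genotypes under PD fluid the 6 genes with TATAAA had a median of -0.32 and the 62 without it -0.65. Ndufa4 held none of the 5 motifs in its window.

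Genes around the respiratory chain were counted for PD fluid in Mr1+/+ from lists of known function. The tricarboxylic acid cycle and pyruvate dehydrogenase list, which supplies NADH and succinate, had 5 of 17 genes rise, where 8.49% of all genes did, and all 17 estimates were positive (median 0.41). Those called were Pdha1, Pdhb, Dlat and Pdhx of the pyruvate dehydrogenase complex and Idh3a of the cycle. Pdha1, its catalytic subunit, was at 121 and 116 CPM in Mr1+/+ PBS and 171, 284 and 271 CPM in Mr1+/+ PD fluid, well apart (log2 fold change 1.03, SE 0.23, edgeR adjusted p = 0.027). Pdhx (0.68) and Pdhb (0.60) rose less.

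The carrier list had 1 of 6 genes rise. This was Ucp3, an inner-membrane carrier of muscle and brown fat, at 11.2 and 19.7 CPM in Mr1+/+ PBS and from 33.6 to 56.8 CPM in the 3 Mr1+/+ PD fluid samples (log2 fold change 1.61, SE 0.34, edgeR adjusted p = 0.025). Of 77 mitochondrial ribosomal protein genes 1 rose (Mrpl17, 0.68), and of 21 genes for mitochondrial DNA expression 1 rose (Hsd17b10, a subunit of mitochondrial RNase P, 0.70), both counts below the share of 8.49% over all genes. None was called among 14 complex I assembly factors (smallest p Nubpl, 0.80), 30 assembly factors of the other complexes (Tmem70, 0.66), 15 genes of cytochrome c and coenzyme Q (Coq9, 0.63) or 22 import genes (Timm8b, 0.81). Cytochrome c (Cycs, 0.27) and cytochrome c1 (Cyc1, 0.02) did not pass the test.

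The regulators of mitochondrial biogenesis had estimates of the other sign. All 13 had negative log2 fold changes for PD fluid in Mr1+/+ (median -0.25), and 1 fell, where 6.37% of all genes were called as lower. It was Pprc1, a coactivator related to PGC-1alpha, at 142 and 101 CPM in Mr1+/+ PBS and 75.3, 86.1 and 68.9 CPM in Mr1+/+ PD fluid (log2 fold change -0.67, SE 0.18, edgeR adjusted p = 0.040). Ppargc1a (PGC-1alpha, -0.54), Esrra (-0.25) and Tfam, which packages and transcribes mitochondrial DNA (-0.22), did not pass the test. Without Mr1+/+ PD fluid replicate 3 no gene of any of these lists was called, and without Mr1+/+ PBS replicate 3 the estimate of Ppargc1a was 0.36.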

How the data were processed

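Poly-A RNA of whole peritoneum was fragmented and copied with random primers, without a strand or UMI step, per the labels' protocols. The deposited table holds whole-number read counts per gene symbol for 10 libraries. Per the submitters' processing notes the genome was mm10. The aligner and read counter were not given in the sources used here. Rows of 1 symbol were summed, and 2 pairs of near-identical libraries (chi-square per gene under 5) were summed. Counts were tested with edgeR 4.0.16 in R 4.3.3 (filterByExpr, TMM, robust quasi-likelihood fit of 4 group means on 8 samples with 4 residual degrees of freedom, Benjamini-Hochberg adjustment over 15385 genes, threshold 0.05), after a check on simulated data. CPM are counts scaled by effective library size, and log2 CPM use a prior count of 2. DESeq2 1.42.0 was an alternative. Coordinates and exonic lengths are from GENCODE M21 (95 of 100 members matched), copies from blastn 2.17.0.

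The gene members and lists were chosen with earlier results of these data known. Named genes were all tested mt- genes, the highest gene per length of each complex, up to 3 called genes per complex and direction, the gene with the smallest p per complex in other comparisons, isoform pairs, and up to 3 called genes of each other list or else its smallest p; regulators were fixed by name. Idh3a, Dlat and the marker lists are given beyond that rule. The values of 1 gene are not reported here. Alternatives were another normalization, DESeq2, no filter, unsummed libraries with and without a replicate block, marker covariates, 2 groups alone and each library left out.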

Additional observations from a re-analysis of the deposited data

Results flagged for a closer look

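The share of counts from mitochondrially encoded genes moved in opposite directions with PD fluid in the 2 genotypes. It was higher than under PBS by 0.506 percentage points in Mr1+/+, where every PD fluid sample was above both PBS samples, and differed by -1.10 percentage points in Mr1-/-, where the lone PD fluid sample was below both PBS samples. The mean log2 CPM of the 11 tested mitochondrial genes differed in the same way, by 0.62 in Mr1+/+ and -0.63 in Mr1-/-. The share from the 87 nuclear genes differed by 0.134 percentage points in Mr1+/+ and by -0.038 in Mr1-/-, again with no overlap. The mean log2 CPM of the 84 tested nuclear genes differed by 0.36 in Mr1+/+ and by -0.11 in Mr1-/-. For that mean the Mr1+/+ groups overlapped, with PD fluid replicate 1 at 4.72 and PBS replicate 3 at 4.76. These differences between genotypes in sums and means over chosen genes were not tested, and the Mr1-/- value rests on 1 PD fluid sample.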

How the results depend on the processing

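Counts of called genes depended on the samples and the tool. For PD fluid in Mr1+/+, 3 nuclear genes were called, against 29 with 10 separate libraries, 13 with DESeq2, 0 with the adipocyte or muscle marker covariate, and 0 to 13 with 1 library left out. No mitochondrial gene was called there, against 4 with 10 libraries, 4 with DESeq2, 1 without the filter, and 0 to 5 with 1 library left out. Between genotypes under PD fluid 0 nuclear genes became 33 with 10 libraries, 10 with DESeq2 and 1 with only the 2 groups fitted (the gene Ndufa4l2). Under PBS 0 mitochondrial genes became 3 with 10 libraries and 6 with DESeq2. For the interaction, 10 libraries called 6 nuclear and 5 mitochondrial genes and DESeq2 called 3 mitochondrial genes. No alternative called a respiratory chain gene for PD fluid in Mr1-/-. The marker covariates were chosen with results known. For PD fluid in Mr1+/+ the adipocyte covariate fit called 0.416% of all genes, the muscle covariate fit 3.52% and the fit without the filter 12.9%. Between genotypes under PD fluid the fit to only the 2 groups called 3.83% of all genes. The fits to 10 libraries count near-identical libraries as separate samples, and called 37.5% of all genes for PD fluid in Mr1+/+, 22.9% for genotype under PD fluid, 0.337% for genotype under PBS and 10.1% for the interaction.

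Replicate numbers did not pair the samples: 13 pairs with the same number correlated at -0.156 to 0.174. With 10 libraries and the replicate block, PD fluid in Mr1+/+ called 41 nuclear and 6 mitochondrial genes (37.4% of all genes), genotype under PD fluid 24 nuclear genes (16.4%), the interaction 15 nuclear and 6 mitochondrial genes (12.9%), and genotype under PBS 0 of both (0.0202%).

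Signs turned mainly with the adipocyte covariate, whose level itself differs between the groups. For PD fluid in Mr1+/+ it gave log2 fold changes of -0.038 for Atp5a1, -0.47 for Coq9, -0.20 for Cox4i1, -0.32 for Cox6b1, -1.45 for Cox6b2, -0.96 for Cox7b, -0.62 for Cyc1, -0.46 for Cycs, -0.51 for mt-Co1, -0.24 for mt-Co3, -0.19 for mt-Nd1, -0.45 for Ndufa4l2, -0.37 for Nubpl, -0.13 for Sdha, 0.000694 for Tfam, -0.73 for Ucp3 and -0.33 for Uqcrfs1. Its interaction was 0.030 for Sdha and 0.22 for Uqcrh. The muscle covariate gave -0.057 for Cox6b2, -0.061 for Cox7b and -0.21 for Cyc1. With 1 library left out, PD fluid in Mr1+/+ ran from -0.40 to 0.78 for Cox6a2, -0.96 to 0.55 for Cox7a1, -0.094 to 0.24 for Cyc1, -0.13 to 0.80 for mt-Nd5 and -0.62 to 0.36 for Ppargc1a, and PD fluid in Mr1-/- from -0.37 to 0.057 for Sdhc. The causes of these shifts were not tested. With 4 residual degrees of freedom and 1 Mr1-/- PD fluid sample, small differences were not detectable, and Cox8b rests on 6 to 76 counts per library.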
